A study of Mus musculus with 42 samples.

Results

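The genes described here are 34 genes whose transcripts are made by dividing cells, among them the mitotic marker Mki67, the cyclins, the mitotic kinases, the spindle proteins and the replicative helicase. They were listed by symbol, by a rule that uses no measured value though it was drawn up with earlier results of these data known, out of the 20018 named genes with a probe on the array. The 34 genes had 48 probes, and 11 genes had more than 1. Where a gene had several, the probe with the highest mean of both channels stood for it.

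The series measured males of the transgenic Muta™Mouse line (strain 40.6), about 11 weeks old, that received benzo(k)fluoranthene (BkF) by oral gavage. BkF is a polycyclic aromatic hydrocarbon, a product of incomplete combustion that switches on the aryl hydrocarbon receptor and its target Cyp1a1. The compound was given in olive oil on 28 days, and lung, liver and forestomach were taken 72 h after the last dose. D0 was olive oil alone, D1 was 25, D2 was 50 and D3 was 100 mg/kg-bw/day. All mice, controls included, carried the strain's lacZ transgene and received olive oil. Of 15 mice, lung was measured in 4, 3, 4 and 4 mice at D0, D1, D2 and D3, liver in 4, 2, 3 and 4, and forestomach in 4, 3, 4 and 3. Each replicate is a separate mouse, and the same mouse number recurs across tissues. Of the lung the right lobe and of the liver the left lobe were used, so each value is an average over a whole piece of tissue, in which a smaller share of dividing cells and less transcript per dividing cell cannot be told apart.

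Each value is a log2 ratio of the tissue's RNA (Cy5) over a universal mouse reference RNA (Cy3), a pool from 11 cell lines, hybridised on the same array. Cultured lines divide, so the ratio of a proliferation gene in adult tissue is commonly below 0. The ratio compares 1 probe between samples and does not rank genes by abundance. A gene is called where limma gives a Benjamini-Hochberg adjusted p of at most 0.05 over all probes kept in the tissue and a difference of at least 1.5-fold, which is 0.58 on the log2 scale.

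Passage through the cell cycle runs in steps, each with its own proteins. In G1 the licensing factor Cdc6 loads the Mcm2 to Mcm7 helicase onto replication origins, and in S phase Cdc45 activates it while Rrm2 and Tyms supply deoxynucleotides. Cyclin A and cyclin B with Cdk1 drive entry into mitosis, Plk1 and the Aurora kinases organise the spindle, and Cdc20 with Ube2c directs the anaphase-promoting complex to end it. E2F factors bound at promoters switch the early genes, and the DREAM complex, with Mybl2 and Foxm1 in its activating forms, switches the late ones through the CHR element and neighbouring CCAAT boxes. The squamous lining of the forestomach is renewed throughout life from a dividing basal layer, whereas hepatocytes and the cells of the alveoli seldom divide in healthy adults.

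Promoter letters are shown for genes called together between tissues and for genes that were not. Of the 34 members, 27 were found in the promoter sequences of RefSeq (GRCm38.p6), with 29 promoters from 250 bases before to 50 bases after the start of the gene. The motifs searched on both strands were the CCAAT box (letters CCAAT), the CHR (letters TTTGAA) and an E2F-type site, for which either TTCCCGC or the letters TTGGCGC counted and which can share bases with a CCAAT box. The CCAAT box stood in 23 of 29 promoters (79.3%) against 37.4% of all 32851. The CHR stood in 15 (51.7%) against 17.9%, and an E2F-type match in 9 (31%) against 6.81%. Both the CCAAT box and the CHR were present in 15 (51.7%) against 6.95% of all promoters. A match describes letters and is not a bound site.

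The 200 bases just before the start are given, 5′ to 3′ on the strand of the gene, with every match in capitals, for Mki67 (chr7:135716380-135716579, minus strand), Cdk1 (chr10:69352913-69353112, minus strand), Plk1 (chr7:122159235-122159434, plus strand) and Mcm7 (chr5:138171884-138172083, minus strand). They stand for a marker of dividing cells, a mitotic kinase with a like pattern, a mitotic kinase not called between tissues after loess, and a replication gene not called between forestomach and lung.
Mki67: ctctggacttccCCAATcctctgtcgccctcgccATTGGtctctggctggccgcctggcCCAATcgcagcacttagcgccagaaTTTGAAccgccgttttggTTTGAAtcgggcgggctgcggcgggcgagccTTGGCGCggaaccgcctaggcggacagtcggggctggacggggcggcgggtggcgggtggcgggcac
Cdk1: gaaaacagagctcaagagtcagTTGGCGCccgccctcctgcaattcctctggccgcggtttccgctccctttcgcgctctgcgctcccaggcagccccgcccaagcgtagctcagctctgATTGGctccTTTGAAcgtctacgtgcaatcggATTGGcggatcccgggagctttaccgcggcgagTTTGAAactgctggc
Plk1: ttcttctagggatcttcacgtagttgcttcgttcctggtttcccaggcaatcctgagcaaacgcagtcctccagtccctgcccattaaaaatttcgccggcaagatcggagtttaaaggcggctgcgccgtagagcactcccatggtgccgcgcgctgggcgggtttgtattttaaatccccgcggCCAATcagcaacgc
Mcm7: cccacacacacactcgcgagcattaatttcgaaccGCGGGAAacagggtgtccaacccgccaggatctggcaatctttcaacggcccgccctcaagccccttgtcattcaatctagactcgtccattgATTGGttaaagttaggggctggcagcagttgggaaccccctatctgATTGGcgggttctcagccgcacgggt
Mki67 had 3 CCAAT, 2 CHR and 1 E2F-type match in this window, and Cdk1 had 2, 2 and 1. Plk1 had 1 CCAAT match, and its CHR match lay outside the bases shown, 30 bases after the start. Mcm7 had 2 CCAAT matches and 1 E2F-type match without a CHR.

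The 42 arrays held 55681 probes, of which 32701 were kept in lung, 26661 in liver and 25321 in forestomach. A probe was kept where its Cy5 signal passed the scanner software's background test on 3 or more arrays of the tissue, and such a signal is called well above background. Exposure showed in Cyp1a1, whose mean log2 ratio in lung was 2.67 ± 0.55 (SD, n = 4) at D0 and 9.48 ± 0.18 (SD, n = 4) at D3. Liver and forestomach gave 0.02 ± 0.14 and 0.15 ± 0.44 (SD, n = 4 each) at D0, with 5.28 ± 1.88 (SD, n = 4) and 3.39 ± 1.29 (SD, n = 3) at D3. At D1 the mice varied more: lung gave 6.78 ± 2.67 (SD, n = 3), liver 2.3 ± 3.27 (SD, n = 2) and forestomach only 0.73 ± 1.04 (SD, n = 3). At D2 the means were 8.96 ± 0.5 (SD, n = 4), 5.71 ± 1.77 (SD, n = 3) and 2.39 ± 1.8 (SD, n = 4). Lung epithelial markers averaged 5.16 to 6.12 in lung, hepatocyte markers 7.16 to 7.87 in liver and squamous epithelial markers 3.17 to 4.32 in forestomach, each higher than in the other tissues. Some arrays also held RNA of a neighbouring tissue. Markers of glandular stomach averaged 5.15 to 6.34 on 9 of 14 forestomach arrays, all of D1 included, and 0.44 to 1.40 on the other 5. Lung of D1 mouse 7 carried glandular stomach markers (4.0), lung of D2 mouse 12 carried squamous (3.11) and skeletal muscle (4.72) markers, and skeletal muscle markers averaged 3.80 in liver of D3 mouse 17. Liver lay on slides of its own, read with another version of the scanner software, so tissue and slide cannot be told apart in any comparison with liver. Of 14076 probes with a clear reference signal, 406 read at least 2 log2 units lower, and 12 higher, on the liver arrays.

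Of the 34 members, 32 were kept in lung, 31 in forestomach and 27 in liver, and 27 were kept in all 3 tissues. Ccne2, a G1/S cyclin, and Aurkb, the kinase of the chromosomal passenger complex, were well above background on 0 of 42 arrays. Both are accounted for here by that count and enter a test only in the alternative with no filter. Liver also lost Cdc6 and Cdk1 (0 of 13 arrays each) and Cdc45, Bub1 and Kif11 (1 of 13 each), while forestomach lost Cdc45 (2 of 14).

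In the 4 vehicle mice most proliferation genes were higher in forestomach than in lung or liver. Of the 31 members measured in both, 25 were called higher in forestomach than in lung and 0 lower, where 18.2% of all 24521 probes were called higher. The median difference of the members was 1.18, about the size of Aurka's, against 0.01 over all probes, and 26 members had no overlap between the 4 forestomach and 4 lung values, forestomach being higher, as for 23.1% of all probes. Against liver, 22 of 27 members were called higher and 0 lower, where 24.4% of all 22042 probes were called higher. There the median was 1.25 against 0.02 over all probes. Some of these members were near background in 1 of the tissues, and under a stricter background filter the counts were 24 of 30 and 21 of 26.

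After loess the same order held mouse by mouse. The median member was higher in forestomach than in the lung of the same animal in 14 of 14 mice, by 0.51 to 1.48, with 27 to 31 of 31 members above 0. It was higher than in the liver of the same animal in 12 of 12 mice, by 0.69 to 1.81, with 24 to 27 of 27 members above 0. With each array centred on its median the order held in 10 of 14 mice against lung (-0.28 to 0.49) and in 4 of 12 against liver (-1.41 to 0.63), and relative to the median of all probes in the same mouse the members lay 0.20 to 1.03 and 0.04 to 1.28 higher. Forestomach and lung shared slides, and within slides 1, 3 and 4 the median vehicle difference was 1.44, 1.00 and 1.16. Without the forestomach arrays of vehicle mice 2 and 3, the vehicle mice with glandular stomach markers, 25 and 21 members were called higher than in lung and liver. That setting was chosen after the data were seen. Markers of T cells and of B and plasma cells, which can also divide, averaged -0.94 to -0.45 and -1.66 to -0.96 in forestomach, -0.15 to 0.53 and -1.10 to -0.04 in lung, and -0.91 to -0.45 and -1.84 to -0.85 in liver. Red cell precursor markers averaged 0.12 to 0.45 in forestomach, 0.95 to 1.55 in lung and 0.9 to 1.5 in liver, and the part of these cells in the differences was not tested.

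The size of these differences depends on how each array is centred. With each array set to the median of all its probes in place of loess, the median of all probes itself shifted by -0.50 (forestomach minus lung) and -0.80 (forestomach minus liver). Under that centring 1 member was called higher in each comparison, Ccnb1 against lung and Mki67 against liver, while Plk1 (-1.51), Ube2c (-0.87) and Mybl2 (-1.55) were called lower in forestomach than in liver. Every member called higher after loess had a smaller difference under that centring, and the medians of the members were 0.22 and 0.00. Relative to the median of all probes the members then lay 0.72 and 0.80 higher. The split of all probes moved to 3.41% higher and 35.2% lower against lung, from 18.2% and 19.5%, and to 4.9% and 53.2% against liver, from 24.4% and 20.6%. Centring on the 12617 probes well above background on all 42 arrays, a setting chosen after the data were seen, gave 25 and 22 members, as loess did.

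**Figure D1:**
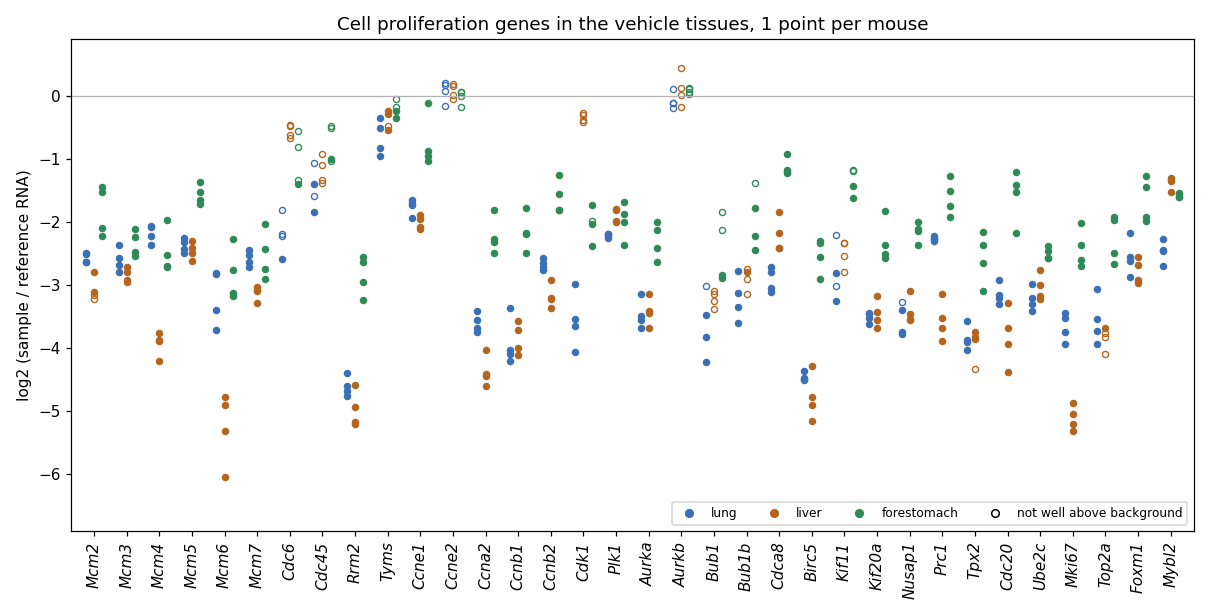
Log2 ratio over reference RNA (vertical axis) of each of the 34 proliferation genes (horizontal axis, ordered by role) in the vehicle mice, with 1 point per mouse for lung, liver and forestomach and open points where the sample channel was not well above background. The forestomach points lie above those of lung without overlap for 26 of 31 genes kept in both (and for 23.1% of all probes), after loess. Ratios do not compare 1 gene with another.

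The chromosome proteins showed the pattern plainly. Mki67, a surfactant-like coat of mitotic chromosomes and the usual marker of dividing cells, read -2.60, -2.70, -2.02 and -2.36 in the forestomach of the vehicle mice and -3.75, -3.45, -3.53 and -3.94 in their lungs (mice 1 to 4 in order, as in every list of vehicle values). The livers of these mice read -5.04, -5.21, -4.88 and -5.31. Liver was lowest, lung intermediate and forestomach highest, without overlap. Forestomach was higher by 1.25 (SE 0.20) than lung and by 2.69 (SE 0.20) than liver, and lung was higher than liver by 1.44 (SE 0.20) (limma adjusted p = 3.44e-06, 9.19e-14 and 1.15e-07). A second Mki67 probe gave 1.16, 2.89 and 1.73. Top2a, the topoisomerase that untangles sister chromatids, read -1.93, -2.67, -2.50 and -1.97 in the forestomach of the vehicle mice and -3.73, -3.54, -3.94 and -3.07 in their lungs. In liver it read -3.82, -3.77, -3.68 and -4.09, with 1 of 4 arrays well above background. It was higher in forestomach by 1.30 (SE 0.23) and 1.57 (SE 0.23).

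Among the cyclins and mitotic kinases, 5 of 6 measured members were called higher in forestomach than in lung and 4 of 5 than in liver. Ccna2, the cyclin of S phase and G2, read -2.28, -2.32, -1.81 and -2.50 in the forestomach of the vehicle mice and -3.69, -3.42, -3.75 and -3.55 in their lungs, and -4.42, -4.44, -4.04 and -4.60 in liver. Its differences were 1.38 (SE 0.21) against lung and 2.15 (SE 0.21) against liver. Ccnb1, the cyclin that activates Cdk1 at mitosis, read -2.19, -2.49, -2.18 and -1.78 in the forestomach of the vehicle mice and -4.10, -4.03, -4.20 and -3.37 in their lungs, with liver at -3.71, -4.0, -3.58 and -4.11. Lung and liver overlapped for Ccnb1, and forestomach exceeded them by 1.76 (SE 0.22) and 1.69 (SE 0.22). Probe 3 of Ccnb1 gave 0.62 against liver, which was not called. Ccnb2, its close relative, read -1.26, -1.81, -1.56 and -1.82 in the forestomach of the vehicle mice and -2.71, -2.65, -2.76 and -2.58 in their lungs, and -3.22, -3.20, -2.93 and -3.36 in liver. The differences were 1.06 (SE 0.19) and 1.57 (SE 0.19), but 0.17 and 0.12 after median centring. Aurka, the kinase of spindle poles, read -2.13, -2.42, -2.63 and -2.01 in the forestomach of the vehicle mice and -3.56, -3.50, -3.69 and -3.15 in their lungs, and -3.41, -3.44, -3.14 and -3.69 in liver. It was higher in forestomach by 1.18 (SE 0.20) and, against liver, by 1.12 (SE 0.20) after loess but -0.20 after median centring.

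Cdk1 itself read -1.98, -2.03, -2.39 and -1.74 in the forestomach of the vehicle mice and -3.54, -3.65, -4.07 and -2.99 in their lungs, a difference of 1.53 (SE 0.20) with adjusted p = 8.11e-08 by limma. In liver no array had Cdk1 well above background, and its reference signal there differed by -4.24 log2 units from that on the lung and forestomach arrays, relative to the median difference over the brighter probes, so its liver ratios (mean -0.35) are not comparable. The sample channel alone cannot settle the comparison either. It cannot tell low Cdk1 in liver from a probe that reads low on those arrays, as this probe did for the reference RNA. No fold against liver is therefore given for Cdk1. Plk1, the polo kinase of spindle assembly, stood apart from its partners. It read -2.0, -2.37, -1.88 and -1.69 in the forestomach of the vehicle mice and -2.25, -2.20, -2.22 and -2.20 in their lungs, with liver at -1.80, -2.01, -1.82 and -1.99. All 4 lungs were below all 4 livers, a difference of -0.31 (SE 0.15) with adjusted p = 0.0663 by limma, and forestomach overlapped both. The differences of forestomach were 0.24 (SE 0.15) and -0.08 (SE 0.15) (adjusted p = 0.187 and 0.677 by limma), neither called.

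All 9 measured members of the spindle, checkpoint and cytokinesis group were called higher in forestomach than in lung, and 7 of 7 than in liver. Birc5, the survivin subunit of the chromosomal passenger complex, read -2.91, -2.34, -2.31 and -2.55 in the forestomach of the vehicle mice and -4.51, -4.36, -4.48 and -4.49 in their lungs. In liver it read -4.78, -5.15, -4.29 and -4.90. On this probe its forestomach differences were the widest of the group, 1.93 (SE 0.25) and 2.25 (SE 0.25). Probe 2 of Birc5 gave narrower ones, with vehicle forestomachs between -1.86 and -1.29, lungs between -3.49 and -2.98 and livers between -3.14 and -2.82. Cdca8, the borealin subunit of the same complex, read -0.93, -1.21, -1.23 and -1.18 in the forestomach of the vehicle mice and -3.11, -2.72, -3.05 and -2.79 in their lungs, and -2.17, -2.42, -1.85 and -2.41 in liver. For Cdca8 the order of lung and liver was turned: lung was lower than liver (difference -0.70) and forestomach higher by 1.78 (SE 0.18) than lung and 1.07 (SE 0.18) than liver, the last -0.37 after median centring. Bub1b, a spindle checkpoint kinase-like protein, read -1.39, -2.45, -2.23 and -1.78 in the forestomach of the vehicle mice and -3.35, -3.13, -3.60 and -2.78 in their lungs, and -2.79, -2.75, -2.91 and -3.15 in liver, where 1 of 4 arrays was well above background. The differences were 1.25 (SE 0.21) and 0.93 (SE 0.21), the latter -0.22 after median centring.

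Kif20a, a kinesin of the cleavage furrow, read -1.83, -2.57, -2.51 and -2.36 in the forestomach of the vehicle mice and -3.62, -3.45, -3.52 and -3.46 in their lungs, and -3.43, -3.68, -3.17 and -3.56 in liver. It was higher in forestomach by 1.20 (SE 0.19) and 1.14 (SE 0.19), though -0.12 against liver after median centring. Nusap1, which bundles spindle microtubules, read -2.12, -2.14, -2.37 and -2.0 in the forestomach of the vehicle mice and -3.74, -3.40, -3.78 and -3.27 in their lungs, and -3.46, -3.54, -3.09 and -3.56 in liver. Lung and liver overlapped, with forestomach 1.39 (SE 0.26) and 1.25 (SE 0.26) higher, but 0.38 and 0.03 after median centring. Prc1, the crosslinker of the spindle midzone, read -1.75, -1.92, -1.28 and -1.51 in the forestomach of the vehicle mice and -2.27, -2.27, -2.23 and -2.31 in their lungs. Its liver values of -3.52, -3.69, -3.15 and -3.89 were the lowest, so the difference was 0.65 (SE 0.15) against lung (-0.26 after median centring) and 1.95 (SE 0.15) against liver. Tpx2, the activator of Aurka on the spindle, read -2.16, -3.09, -2.66 and -2.36 in the forestomach of the vehicle mice and -3.90, -3.87, -4.04 and -3.57 in their lungs, and -3.85, -3.83, -3.74 and -4.33 in liver. Its differences were 1.28 (SE 0.21) and 1.37 (SE 0.21), but 0.3 and 0.11 after median centring.

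The checkpoint kinase Bub1 read -1.85, -2.89, -2.85 and -2.13 in the forestomach of the vehicle mice and -3.82, -3.48, -4.23 and -3.02 in their lungs, a difference of 1.21 (SE 0.26). Kif11, the kinesin that pushes spindle poles apart, read -1.18, -1.62, -1.44 and -1.20 in the forestomach of the vehicle mice and -3.02, -2.81, -3.25 and -2.21 in their lungs, a difference of 1.46 (SE 0.22). Both were dim, well above background on 2 of 4 forestomach arrays each and on 3 and 2 of 4 lung arrays. No vehicle liver array had either above background. Bounds were taken on the sample channel alone, after loess and scaling of that channel between arrays, with no dye swap to balance dye bias. Against the lowest signal well above background in liver, Bub1 and Kif11 read at least 1.79-fold and 1.75-fold higher in forestomach. These bounds rest on dim forestomach values, and tissue and slide cannot be told apart in them. The co-activator Cdc20, which turns on the anaphase-promoting complex, read -1.53, -2.18, -1.42 and -1.21 in the forestomach of the vehicle mice and -3.20, -3.16, -3.31 and -2.93 in their lungs, and -3.68, -4.38, -3.28 and -3.93 in liver. It was higher in forestomach by 1.57 (SE 0.24) and 2.23 (SE 0.24). Ube2c, the ubiquitin-conjugating enzyme of that complex, read -2.39, -2.58, -2.46 and -2.57 in the forestomach of the vehicle mice and -3.41, -3.21, -3.31 and -2.99 in their lungs, and -3.0, -3.17, -2.76 and -3.22 in liver. Its difference of 0.73 (SE 0.13) from lung was called (-0.19 after median centring), and that of 0.54 (SE 0.13) from liver was under 1.5-fold. A second Ube2c probe gave 1.79 against liver, which was called.

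Replication genes were less uniform in the comparison with lung. Of 7 members of the licensing group, 3 were called higher in forestomach than in lung, and 5 of 6 higher than in liver. Mcm2, a subunit of the helicase, read -1.45, -2.10, -1.53 and -2.23 in the forestomach of the vehicle mice and -2.49, -2.63, -2.63 and -2.51 in their lungs, and -3.23, -3.16, -2.79 and -3.11 in liver, where 2 of 4 arrays were well above background. Forestomach was higher by 0.73 (SE 0.21) and 1.24 (SE 0.21), but -0.20 and -0.03 after median centring. Mcm5 read -1.37, -1.66, -1.52 and -1.72 in the forestomach of the vehicle mice and -2.43, -2.32, -2.49 and -2.26 in their lungs, and -2.31, -2.50, -2.42 and -2.62 in liver. Its differences of 0.81 (SE 0.17) and 0.89 (SE 0.17) became -0.12 and -0.48 after median centring. Cdc6, the loader of the helicase, read -0.56, -1.34, -1.40 and -0.81 in the forestomach of the vehicle mice and -2.19, -2.23, -2.59 and -1.81 in their lungs. The difference was 1.17 (SE 0.19) on probes that passed background on 1 of 4 arrays in each tissue.

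Mcm4 and Mcm6 were not called between forestomach and lung and were low in liver. Mcm4 read -2.71, -2.70, -1.97 and -2.53 in the forestomach of the vehicle mice and -2.22, -2.37, -2.07 and -2.09 in their lungs, and -3.76, -3.88, -3.89 and -4.21 in liver. Lung exceeded liver by 1.75 (SE 0.16) and forestomach exceeded liver by 1.46 (SE 0.16) (-0.03 after median centring), while forestomach minus lung was -0.29 (SE 0.16). Mcm6 read -3.18, -2.77, -2.27 and -3.13 in the forestomach of the vehicle mice and -2.82, -2.81, -3.72 and -3.40 in their lungs, and -4.91, -4.78, -5.31 and -6.04 in liver. Lung was higher than liver by 2.07 (SE 0.38) and forestomach by 2.42 (SE 0.38), with 0.35 (SE 0.38) between forestomach and lung. Mcm7 read -2.90, -2.75, -2.04 and -2.43 in the forestomach of the vehicle mice and -2.45, -2.64, -2.53 and -2.71 in their lungs, and -3.04, -3.28, -3.08 and -3.09 in liver. Forestomach and lung overlapped with a difference of 0.05 (SE 0.16), and the 0.59 (SE 0.16) against liver was called but read -0.95 after median centring. Mcm3 was not called in any pair of tissues, with 0.26 (SE 0.19) between forestomach and lung and 0.51 (SE 0.19) between forestomach and liver. Cdc45 lay below the filter in liver and forestomach, so no fold is given.

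Of the nucleotide enzymes Rrm2 was called and Tyms was not. Rrm2, the regulated subunit of ribonucleotide reductase, read -3.24, -2.95, -2.63 and -2.56 in the forestomach of the vehicle mice and -4.76, -4.60, -4.68 and -4.40 in their lungs, and -4.93, -5.17, -4.59 and -5.20 in liver. It was higher in forestomach by 1.76 (SE 0.23) and 2.13 (SE 0.23). Tyms, thymidylate synthase, was 0.46 (SE 0.14) and 0.18 (SE 0.14) above lung and liver. The first had adjusted p = 0.00607 by limma with every forestomach above every lung, and missed only the 1.5-fold limit. Ccne1, the cyclin of the G1/S step, read -0.12, -0.87, -0.96 and -1.03 in the forestomach of the vehicle mice and -1.65, -1.74, -1.94 and -1.70 in their lungs, and -1.96, -1.89, -2.08 and -2.11 in liver. Its differences were 1.01 (SE 0.15) and 1.26 (SE 0.15), but 0.03 and 0.04 after median centring. Foxm1, the forkhead factor that drives G2/M genes, read -1.45, -1.99, -1.93 and -1.28 in the forestomach of the vehicle mice and -2.55, -2.62, -2.87 and -2.17 in their lungs, and -2.68, -2.97, -2.56 and -2.93 in liver. Forestomach was higher by 0.89 (SE 0.19) and 1.12 (SE 0.19), with -0.04 and 0.00 after median centring. Mybl2, which brings DREAM targets on in S phase, read -1.56, -1.54, -1.60 and -1.61 in the forestomach of the vehicle mice and -2.70, -2.44, -2.47 and -2.27 in their lungs, and -1.33, -1.31, -1.36 and -1.52 in liver. Forestomach was higher than lung by 0.89 (SE 0.15) (-0.05 after median centring), but liver read highest, -1.09 (SE 0.15) for lung minus liver. The second Mybl2 probe put forestomach 1.18 above liver and lung 0.06 above it, so the liver order of Mybl2 depends on the probe.

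**Figure D2:**
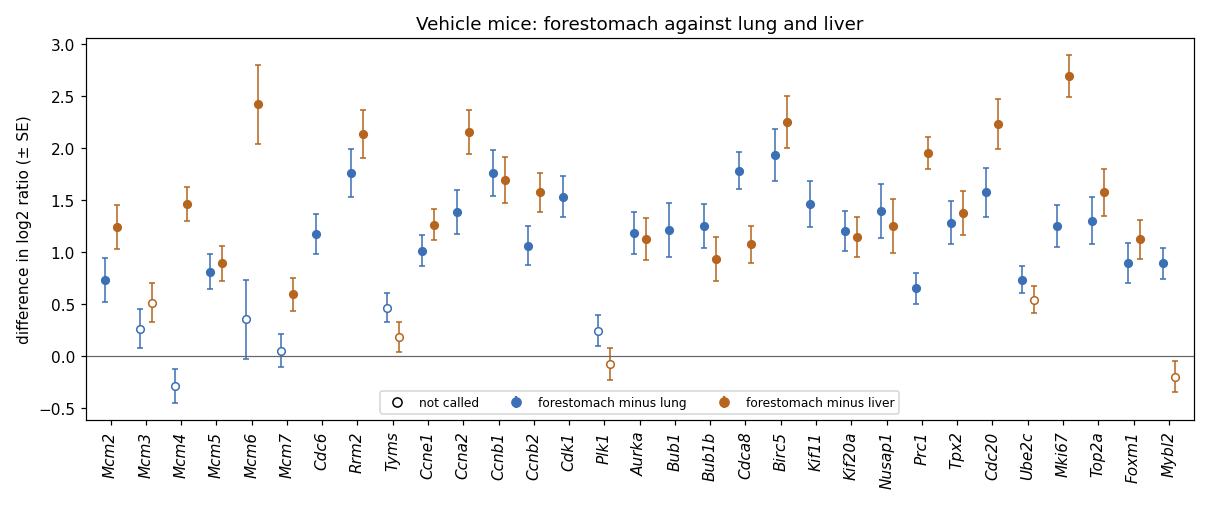
Difference in log2 ratio between forestomach and lung, and between forestomach and liver, in the 4 vehicle mice per tissue (points; bars are ± 1 SE of the limma fit after loess; open points are not called). Of the genes shown, 25 of 31 were called higher than in lung and 22 of 27 higher than in liver, whereas with each array centred on its median 1 was called higher than in lung, and against liver 1 higher and 3 lower.

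Lung and liver differed less after loess. Of 27 members, 6 were called higher in lung (27.2% of all 24590 probes were) and 2 lower (22.8% were), and the median was 0.24 against 0.00 over all probes. The 6 were Mcm6, Mcm4, Mki67, Prc1, Ccna2 and Cdc20, of which Prc1 differed by 1.29 (SE 0.15), Ccna2 by 0.77 (SE 0.21) and Cdc20 by 0.66 (SE 0.24). The reference signal on the liver arrays, relative to the median difference over the brighter probes, was higher by 0.72 for Mcm6, 0.32 for Ccna2 and 0.52 for Cdc20, within a range of -0.80 to 0.72 over the 27 members. Its part was not tested gene by gene. On the sample channel alone, a setting chosen after the data were seen, 6 members were called higher and 3 lower. The members called lower in lung were Mybl2 and Cdca8. For the other 19 the difference missed the threshold, which does not show that their levels were equal. Median centring left 0 called higher and 2 lower, with a median of -0.23, the same as the shift of all probes.

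Related gene lists, chosen with earlier results known, give the setting. Of 30 further mitosis genes, 26 were called higher and 1 lower (Stmn1) in forestomach than in lung, and of 20 further replication genes 14 were higher. Chaf1a and Uhrf1, which help to rebuild chromatin and its DNA methylation behind the fork, led the latter at 1.70 each. Against liver, 15 of 25 and 10 of 19 were called higher and 2 and 2 lower, where 24.4% and 20.6% of all probes were. Ccnf (-1.82), Spc24 (-0.93) and Mcm10 (-3.66) were among those called lower. The reference signal of Mcm10 was, on the same relative scale, 0.51 log2 units higher on the liver arrays than on the others. Of 15 cell cycle inhibitors, 1 was called higher (Cdkn1a, 1.29) and 2 lower (Cdkn1c, -1.38, and Cdkn2b, -1.07) in forestomach than in lung, where 18.2% and 19.5% of all probes were. Against liver 10 were called higher and 1 lower, where 24.4% and 20.6% of all probes were, with a median of 1.15 against 1.25 for the members. Lung exceeded liver for 11 of 15, Cdkn2b by 3.63, where 27.2% of all probes were called higher, and for 6 with median centring. Among 13 G1 entry genes, forestomach exceeded lung for 5, Myc by 2.06, and fell short for 4, the G1 cyclin Ccnd1 most at -2.09. Against liver 8 of the 13 were called higher and 0 lower, with a median of 0.97, so higher values than in liver were not particular to the members. These counts also turn on the centring: with median centring 1 and 2 further mitosis genes, 1 and 0 further replication genes, 0 and 9 inhibitors and 0 and 5 G1 entry genes were called higher and lower in forestomach than in lung. Against liver most calls were then lower, with 2 and 8 further mitosis genes, 1 and 7 further replication genes, 1 and 4 inhibitors and 0 and 4 G1 entry genes called higher and lower.

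At no dose of BkF was a proliferation gene called in any tissue. The count was 0 in lung (0 of 32), liver (0 of 27) and forestomach (0 of 31) at D1, D2 and D3 and for the linear trend over 0 to 100 mg/kg-bw/day, by limma with Benjamini-Hochberg adjustment. Few probes of any kind were called by these rules. In lung the share of all probes called was 0% at D1, 0.0153% at D2, 0.0336% at D3 and 0.0336% for the trend. Liver gave 0%, 0.0488%, 0.06% and 0%, and forestomach 0% throughout. At an unadjusted p below 0.05 the members counted 1, 1 and 6 of 32 in lung, 0, 14 and 3 of 27 in liver and 9, 2 and 0 of 31 in forestomach at D1, D2 and D3. Over all probes those shares were 1.76%, 4.25% and 8.02% in lung, 1.55%, 11.7% and 8.52% in liver and 12.1%, 7.59% and 2.2% in forestomach. A call missed does not show that levels were equal, since each group held 2 to 4 mice.

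**Figure D3:**
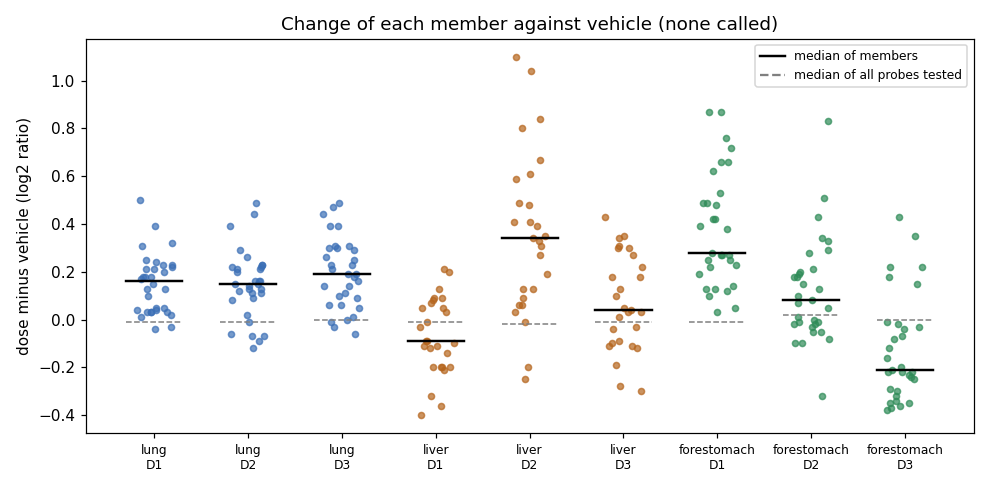
Change of each proliferation gene against vehicle on the log2 scale (points, 1 per gene kept; 32 in lung, 27 in liver, 31 in forestomach) at D1, D2 and D3, with the median of the genes (solid line) and of all probes tested (dashed line). The medians of the genes were 0.16, 0.15 and 0.19 in lung, -0.09, 0.34 and 0.04 in liver and 0.28, 0.08 and -0.21 in forestomach, and 0 genes were called.

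**Figure D4:**
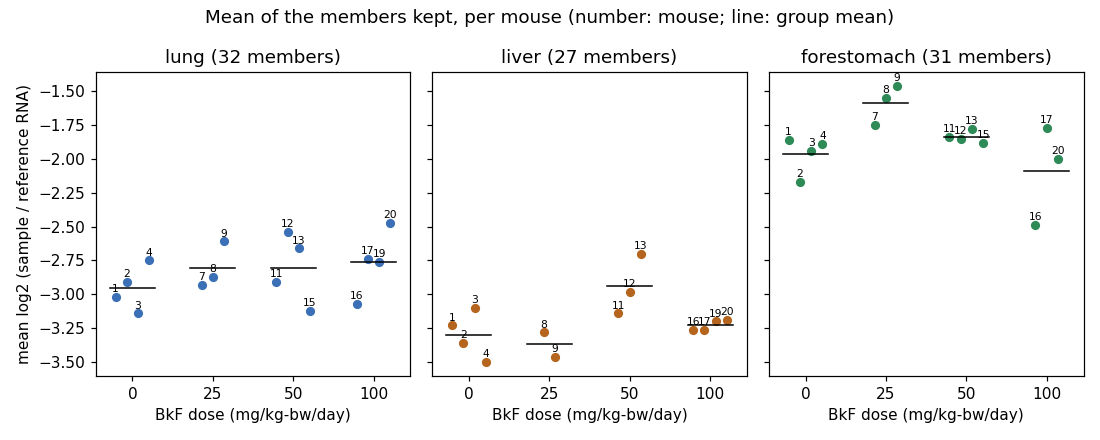
Mean log2 ratio of the proliferation genes kept in each tissue (vertical axis) for every mouse, by BkF dose in mg/kg-bw/day (horizontal axis); numbers name the mice and lines are group means. The 3 D1 forestomachs (-1.75 to -1.46) lie above all 4 vehicle forestomachs (-2.17 to -1.86), the other dose groups overlap the vehicles of their tissue, forestomach of D3 mouse 16 is lowest at -2.49, and liver of D2 mouse 13 is highest of the livers at -2.70.

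In lung most members lay slightly above the vehicle at every dose. The count above 0 was 30, 26 and 29 of 32 at D1, D2 and D3, and the 3 doses share the same 4 vehicle mice. Over all probes 47.6%, 48.6% and 50.9% were above 0. Cdc6 was not well above background on any D1 lung, so its value there is a bound. The medians of the members were 0.16, 0.15 and 0.19, against -0.01, -0.01 and 0.00 over all probes. Groups did not overlap for 3, 2 and 1 members, all higher, where 4.08%, 2.33% and 5.31% of all probes did not overlap. Red cell precursor markers averaged 0.95 to 1.25 in vehicle lungs, 1.01 to 1.26 at D1, 1.26 to 1.55 at D2, above every vehicle, and 1.00 to 1.46 at D3, and their part in the lung values was not tested.

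Rrm2 led in lung at D1 and D2. Vehicle lungs read -4.76, -4.60, -4.68 and -4.40, D1 lungs -4.24, -4.37 and -3.70 (mice 7, 8 and 9), D2 lungs -4.20, -3.72, -4.27 and -4.27 (mice 11, 12, 13 and 15) and D3 lungs -4.64, -4.09, -3.97 and -3.84 (mice 16, 17, 19 and 20). Every D1 and D2 value was above every vehicle value, and D3 mouse 16 lay among the vehicles. The differences were 0.50 (SE 0.20), 0.49 (SE 0.19) and 0.47 (SE 0.19) (limma adjusted p = 1, 1 and 0.543). Birc5 was also above the vehicle mean at each dose. Its D1, D2 and D3 lungs read -4.28, -4.23 and -3.70, then -4.30, -3.42, -4.02 and -4.34, then -4.57, -4.0, -3.54 and -3.77 in those mice, against between -4.51 and -4.36 in the vehicle lungs. The differences were 0.39 (SE 0.24), 0.44 (SE 0.23) and 0.49 (SE 0.23). The other probes of Birc5 gave less, 0.07, 0.01 and 0.13 on probe 2 and 0.10, -0.03 and 0.20 on probe 3.

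Ccna2 had the lowest p of the lung at D3. Its treated lungs read -3.52, -3.41 and -3.15 at D1, -3.42, -2.99, -3.29 and -3.56 at D2 and -3.51, -3.16, -2.94 and -3.04 at D3, with vehicle between -3.75 and -3.42. In D3 all mice but number 16 were above every vehicle. The difference was 0.44 (SE 0.15) with adjusted p = 0.443 by limma, and the trend gave 0.41 with adjusted p = 0.404. Kif20a read -3.47, -3.23, -2.87 and -2.93 at D3 against between -3.62 and -3.45 in vehicle lungs, a difference of 0.39 (SE 0.16) with adjusted p = 0.532 by limma.

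The lung values moved with slide and with single mice. Within slides 1 to 4 the median D3 difference of the members was -0.05, 0.22, 0.25 and 0.35, with 12, 23, 30 and 32 of 32 above 0. Lung of D3 mouse 20 was the highest of the 15 lungs for 13 of 32 members and for 15.2% of all probes. D2 mouse 12, the lung with squamous and skeletal muscle markers, was highest for 8 members and 18.2% of all probes. Leaving out D1 mouse 9, D2 mouse 12 or D3 mouse 20 took the 3 medians to 0.03, 0.06 and 0.04. Without mice 7 and 12 the medians were 0.21, 0.06 and 0.19, and 0 members were called, a setting chosen after the data were seen. Each within-slide value rests on 1 mouse a group.

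In liver the members stood out at D2 and not at D1 or D3. At D2, 24 of 27 were above 0 with a median of 0.34 against -0.02 over all probes (46.4% above 0), whereas D1 and D3 had 10 and 17 above 0 with medians of -0.09 and 0.04. Groups did not overlap for 3, 3 and 2 members at D1, D2 and D3, of which 1, 3 and 1 were higher, where 11.1%, 9.93% and 6.42% of all probes did not overlap. At D1, with 2 mice, Bub1b and Tpx2 were not well above background, and their D1 values are bounds.

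Rrm2 at D2 in liver came closest to a call of all dose comparisons. Vehicle livers read -4.93, -5.17, -4.59 and -5.20, D1 livers -4.84 and -5.02 (mice 8 and 9), D2 livers -4.08, -4.36 and -4.09 (mice 11, 12 and 13) and D3 livers -4.78, -4.48, -4.60 and -4.68 (mice 16, 17, 19 and 20). The 3 D2 livers were the highest of all 13. The difference was 0.80 (SE 0.15) with adjusted p = 0.0865 by limma, and with median centring it was 1.07 and called at an adjusted p of 0.021. At D3 it was 0.34 (SE 0.14).

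Birc5 livers read -4.78, -5.15, -4.29 and -4.90 at D0, -4.95 and -5.40 at D1, -4.20, -3.69 and -3.33 at D2 and -4.37, -4.66, -4.45 and -3.90 at D3. Every D2 value was above every vehicle value, with a difference of 1.04 (SE 0.24) and adjusted p = 0.177 by limma. Probe 2 of Birc5 gave a smaller D2 difference of 0.25 (SE 0.13) with adjusted p = 0.474 by limma, and probe 3 was not kept in liver. Mki67 read -5.20 and -5.43 at D1, -5.0, -4.27 and -4.28 at D2 and -4.99, -5.01, -4.92 and -4.79 at D3, and the vehicle livers lay between -5.31 and -4.88. D2 mice 12 and 13 were high and mouse 11 lay within the vehicle range, so the groups overlapped. The difference was 0.59 (SE 0.17) with adjusted p = 0.244 by limma, and 0.91 (SE 0.25) with adjusted p = 0.238 on the other Mki67 probe. Without mouse 11, Birc5 (1.27, adjusted p = 0.0477) and Mki67 (0.84, adjusted p = 0.0283) were called by limma, 2 members in all, on the 2 remaining livers.

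The D2 livers differed among themselves. Mouse 13 was the highest of 13 livers for 15 of 27 members and for 14.2% of all probes, and its array had 57.7% of probes well above background against 38.4 to 46.4% on the other 12. The mean of the members was -2.70 in mouse 13, -2.98 in mouse 12 and -3.14 in mouse 11, where the vehicle livers gave -3.50 to -3.10. On slide 5 the median D2 difference was 0.21 (23 of 27 above 0) and on slide 6, which held mouse 13, 0.53 (25 of 27). Without mouse 13 the median was 0.20 and 0 members were called. Whether RNA quality or hybridisation of that array has a part in the result was not tested.

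The remaining leading genes of the liver at D1 and D3 had differences of at most 0.32 in size at that dose. Plk1 read -1.80, -2.01, -1.82 and -1.99 in vehicle livers, -2.03 and -2.17 at D1, -1.95, -1.85 and -1.82 at D2 and -2.29, -2.41, -2.10 and -2.01 at D3. All D1 and D3 values were at or below the lowest vehicle value, and the D3 difference was -0.30 (SE 0.10) with adjusted p = 0.457 by limma. Mybl2 read -1.34 and -1.60, then -1.51, -1.62 and -1.60, then -1.83, -1.48, -1.53 and -1.82 against between -1.52 and -1.31 in vehicle livers, a D3 difference of -0.28 (SE 0.11). At D1 the lowest p belonged to Ccnb1, Ccne1 and Mcm7. Ccnb1 read -4.15 and -4.19 against between -4.11 and -3.58, a difference of -0.32 (SE 0.20). Ccne1 read -2.02 and -2.40 against between -2.11 and -1.89, a difference of -0.20 (SE 0.13). Mcm7 read -2.90 and -2.93 against between -3.28 and -3.04, a difference of 0.21 (SE 0.14). All 3 had an adjusted p of 1 by limma.

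In forestomach all 31 members were above the vehicle mean at D1, 20 at D2 and 6 at D3. The medians went from 0.28 through 0.08 to -0.21, against -0.01, 0.02 and 0.00 over all probes, and the linear trend over dose had a median of -0.29 with 25 of 31 members below 0, against 0.01 over all probes and with 0 called. At D1 the groups did not overlap for 11 members, all higher, where 14.8% of all probes did not overlap, and at D2 and D3 for 0 members, where 3.55% and 2.9% did not. Cdc6 was not well above background on any D1 forestomach, so its value there is a bound.

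Plk1, not called between tissues in vehicle mice after loess, led at D1. Vehicle forestomachs read -2.0, -2.37, -1.88 and -1.69, D1 -1.12, -1.08 and -1.15 (mice 7, 8 and 9), D2 -1.70, -1.84, -1.76 and -1.85 (mice 11, 12, 13 and 15) and D3 -2.68, -1.46 and -1.90 (mice 16, 17 and 20). The 3 D1 values were the highest of 14. The difference was 0.87 (SE 0.23) with adjusted p = 0.263 by limma. Mki67 read -1.52, -1.59 and -1.54 at D1, -2.03, -2.27, -2.25 and -1.81 at D2 and -3.15, -1.92 and -2.83 at D3, with vehicles between -2.70 and -2.02. Again the D1 mice were highest and close together, with a difference of 0.87 (SE 0.25) and adjusted p = 0.27 by limma. Ube2c read -1.87, -2.07 and -1.96 at D1, -2.33, -2.42, -2.51 and -2.33 at D2 and -3.09, -2.32 and -2.69 at D3, with vehicles between -2.58 and -2.39. Its D1 difference was 0.53 (SE 0.16) with adjusted p = 0.272 by limma.

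All 3 D1 forestomachs carried glandular stomach markers, as did 2 of 4 vehicles, and squamous markers were lower in the D1 forestomachs (3.44 to 3.76) than in every vehicle (3.83 to 4.32). The part of either in the D1 values was not tested. Cyp1a1 averaged 0.73 ± 1.04 (SD, n = 3) in the D1 forestomachs, against 0.15 ± 0.44 (SD, n = 4) in the vehicles. On the 9 arrays with those markers alone, a choice made after the data were seen, the D1 median was 0.45 (-0.02 over all probes), with 14 members at an unadjusted p below 0.05, where 12.2% of all probes were, and 0 called. Within slide 1 the D1 median was 0.03 (16 of 31 above 0) and within slide 3 it was 0.40 (29 of 31), and with slide as a block it was 0.13. Without D1 mouse 7 it was 0.45.

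At D2 the helicase genes led. Mcm6 read -2.62, -1.63, -1.86 and -1.93 at D2 against -3.18, -2.77, -2.27 and -3.13 in vehicles, a difference of 0.83 (SE 0.32) with adjusted p = 0.591 by limma. Its D1 values were -2.21, -2.02 and -2.13 and its D3 values -3.13, -1.54 and -2.55. Mcm7 read -2.34, -1.78, -2.19 and -1.78 at D2 against between -2.90 and -2.04, a difference of 0.51 (SE 0.23). Cdca8 lay the other way at -1.13, -1.46, -1.66 and -1.57 against between -1.23 and -0.93, a difference of -0.32 (SE 0.15). Both overlapped the vehicle values.

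At D3 the median turned on 1 mouse, and was 0.03 without mouse 16. Forestomach of D3 mouse 16 was the lowest of 14 for 24 of 31 members, against 8.11% of all probes, and averaged -2.49 where mice 17 and 20 averaged -1.77 and -2.0 and the vehicles -2.17 to -1.86. Other D3 mice were low for single members, mouse 20 below every vehicle for Mki67, Ccna2, Ccnb2, Birc5 and Ube2c and mouse 17 for Ccnb1 and Cdca8. All 3 D3 mice were below the vehicle mean for Ccne1, Bub1b, Cdca8, Kif11, Nusap1 and Cdc20. Within slide 4, which held mouse 16, the D3 median was -0.47 (0 of 31 above 0), and within slide 3, which held mouse 20, it was -0.13 (9 of 31). Nusap1 read -3.08, -2.21 and -2.31 in mice 16, 17 and 20 against between -2.37 and -2.0, a difference of -0.38 (SE 0.20). Cdk1 read -2.88, -1.97 and -2.31 against between -2.39 and -1.74, and Kif11 -2.06, -1.53 and -1.37 against between -1.62 and -1.18. Their differences were -0.35 (SE 0.21) and -0.29 (SE 0.18), and the adjusted p was 1 for all 3 by limma. On the 9 arrays with glandular stomach markers, which hold 1 of the 3 D3 mice, the D3 median was 0.25 and not -0.21.

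**Figure D5:**
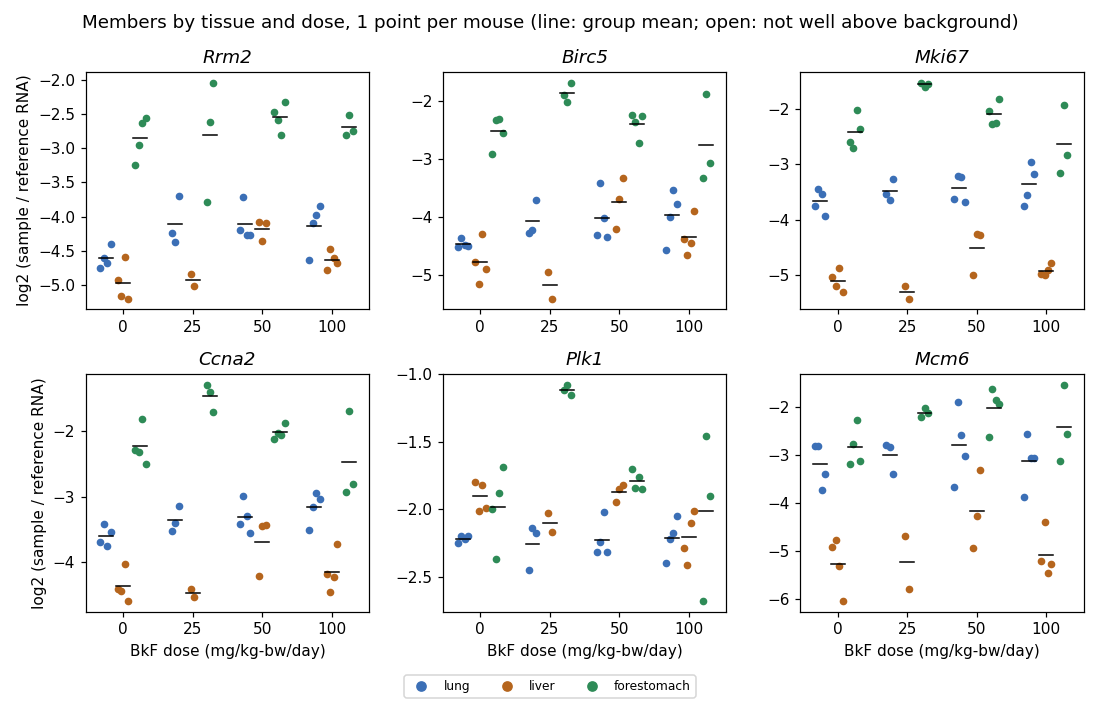
Log2 ratio over reference RNA (vertical axis) of Rrm2, Birc5, Mki67, Ccna2, Plk1 and Mcm6 in every mouse by BkF dose in mg/kg-bw/day (horizontal axis), with 1 point per mouse, colours for tissue and lines for group means; a point would be open if not well above background. Liver Rrm2 is highest in the 3 D2 mice (-4.08, -4.36 and -4.09), forestomach Plk1 in the 3 D1 mice (-1.12, -1.08 and -1.15), and no dose difference shown was called.

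No member was called for a different effect of D3 between tissues, where 0.0122% (lung against liver), 0.0122% (forestomach against lung) and 0% (forestomach against liver) of all probes were. At an unadjusted p below 0.05 the counts were 1 of 27, 2 of 31 and 0 of 27 members, where 5.35%, 4.71% and 3.52% of all probes were. Mybl2 had the lowest p between lung and liver, with a D3 effect 0.68 higher in lung (adjusted p = 0.556 by limma). For forestomach against lung the lowest was Ccna2, with a difference of -0.69 (adjusted p = 1 by limma). Of the further lists, 0 genes were called at any dose in any tissue, and the medians of the further mitosis genes were 0.14, 0.04 and 0.15 in lung, -0.09, 0.33 and 0.11 in liver and 0.30, 0.01 and -0.23 in forestomach at D1, D2 and D3. The cell cycle inhibitors had medians of 0.07, 0.16 and 0.10 in lung, 0.00, 0.21 and -0.01 in liver and -0.05, 0.00 and -0.03 in forestomach.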

How the data were processed

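RNA from lung, liver and forestomach was hybridised on 42 Agilent SurePrint G3 Mouse 8x60K 2-colour arrays, with the tissue in Cy5 and the reference RNA in Cy3 and no dye swap. The deposited scanner files hold spot intensity values and a log10 ratio made by Feature Extraction (10.7.3.1, and 11.0.1.1 for liver, per the file headers). The authors' methods name LOWESS normalisation, and their processed table, deposited as log2 ratios, correlated with the ratios used here for lung and forestomach only, so its liver columns were not used. Median spot intensities of both channels were normalised within arrays by loess without background subtraction, leaving out 0.392% of spots as outliers, and spots of 1 probe were averaged (R 4.3.3, limma 3.58.1). RefSeq accessions in the files named 26413 of 55681 probes (47.4%).

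Doses were compared with vehicle in 1 limma fit per tissue, the trend in a fit on dose, and the tissues in a fit of all 12 groups, each over all probes kept, with Benjamini-Hochberg adjustment, after testing on simulated data. Arrays carry no read depth, and the number of mice limits the precision. The members, their roles and the gene lists were chosen with earlier results of these data known. Values are given for every mouse for members called and for the 3 members with the lowest p per tissue and dose. Alternatives were the log10 ratio of the file, the authors' table, median centring, normexp (offset 50, on median rather than mean signals), other filters, slide as a block, mouse as a replicate block and leaving out each array. Added after the data were seen were centring on probes well above background on all arrays, the sample channel alone and the sets without arrays picked by their markers.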

Additional observations from a re-analysis of the deposited data

Results flagged for a closer look

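A total of 219 tests took 1 member, or the mean of the members, in a group of 4 mice. In 6 (2.74%) a mouse stood apart from the other 3 by more than Dixon's critical value. Chance gives about 1 in 20 for a single test, and these tests share mice and are not independent. Lung of D2 mouse 12, the lung with squamous and skeletal muscle markers, stood highest for Mcm2 (-1.54, next -2.56), Mcm5 (-1.65, next -2.34) and Rrm2 (-3.72, next -4.20). Lung of D3 mouse 20 stood highest for Bub1 (-2.81, next -3.72). Among vehicle mice, lung of mouse 2 was high for Birc5 (-4.36, next -4.48) and forestomach of mouse 1 for Cdca8 (-0.93, next -1.18). Plk1 at D1 moved apart in 2 tissues: the 3 D1 forestomachs were all above the vehicles, a mean difference of 0.87, and both D1 livers were below every vehicle, a mean difference of -0.20. That difference between tissues was not tested, and neither value was called.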

How the results depend on the processing

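Under the alternatives 339 of 351 medians moved by less than the spread between mice. Counts of calls say little of stability in the dose comparisons, where 0 members were called. Median centring gave 1 member higher in forestomach than in lung (median 0.22), 1 than in liver (median 0.00), 2 called between lung and liver (median -0.23), and 1 called in liver at D2 (median 0.58). It moved the medians of liver D3 to 0.30, of the liver trend to 0.36 and of the D3 effect between lung and liver to -0.16, while the medians of all probes went to 0.17, 0.18 and -0.19. It also turned the sign, against lung, of Mybl2 (-0.05), Ube2c (-0.19), Foxm1 (-0.04), Mcm5 (-0.12), Prc1 (-0.26) and Mcm2 (-0.20), and against liver, of Mcm4 (-0.03), Kif20a (-0.12), Cdca8 (-0.37), Mcm2 (-0.03), Aurka (-0.20), Mcm5 (-0.48), Bub1b (-0.22) and Mcm7 (-0.95). Foxm1 against liver went to 0.00. The cause was not tested. The file's log ratio gave 14 calls between lung and liver (median 0.53), medians of 1.76 for forestomach minus liver and 0.62 for liver D2, and 0.05 for Cdk1 in forestomach at D3. Other probes gave -0.03 for Birc5 in lung at D2 and 0.06 for Mybl2 in lung minus liver. On the 9 forestomach arrays with glandular stomach markers the medians were 0.25 at D3 and 0.10 for the trend, with Nusap1 at 0.04 and Cdk1 at 0.24 at D3.

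Leaving out 1 array at a time gave 24 to 25 members higher in forestomach than in lung (medians 1.02 to 1.28), 21 to 23 than in liver (medians 1.12 to 1.34) and 7 to 9 called between lung and liver (0.11 to 0.31). It gave 0 in every dose comparison except liver D2 (0 to 2). With the mouse as a replicate block (consensus correlation 0.06) the counts were 25, 22 and 8, and 0 for the D3 effects, so the block changed no call count; the replicate block does not apply within 1 tissue, where each mouse gave 1 array. The authors' table could not be used for liver, and slide could not be fitted between liver and the other tissues. Dim probes, most of all Cdc6, Cdc45, Bub1 and Kif11, limit what can be said of liver.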
